A study of Mus musculus with 6 samples.

Results

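The genes described here encode the nuclear subunits of the mitochondrial respiratory chain and of ATP synthase, with cytochrome c. They were the symbols of the deposited count table that begin with Nduf (subunit series a, b, c, s and v), Uqcr, Cox4 to Cox8 or Atp5, plus Sdha to Sdhd, Cyc1 and Cycs, with 10 or more reads in at least 3 libraries. Of 24091 symbols in the table, 86 had such a name and 80 reached that number of reads. They comprised 35 subunits of complex I, 4 of complex II, 9 of complex III, 14 of complex IV with its close partners, 17 genes named for ATP synthase, and cytochrome c itself. Among the 17, Atp5s and Atp5sl were placed in no part of the enzyme but are counted in its totals and medians. Just inside the read threshold lay Atp5g2, with 11, 10 and 5 reads in healthy 1 to 3 and 11, 4 and 12 reads in AML 1 to 3, and just outside it lay Cox7a1, with 2, 7 and 3 reads in healthy 1 to 3 and 4, 8 and 9 reads in AML 1 to 3. Of the 6 symbols left out, Cox7b2, Cox8b, Cox8c and Ndufa4l2 had no read in any library.

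Polyadenylated RNA was sequenced from group 1 innate lymphoid cells (ILC1), a tissue-resident type of lymphocyte, taken from the livers of C57BL/6 mice. In the AML group the mice had been given 1000000 cells of C1498, a transplantable acute myeloid leukaemia line, into a vein 14 days earlier, and in the healthy group they had not. Each group held 3 libraries, called healthy 1 to 3 and AML 1 to 3, each made from 2 ng of total RNA and read without strand information, so where genes overlap on both strands their reads could not be assigned by strand. The labels do not say whether a library came from 1 animal or a pool, nor how the cells were sorted, so p-values reflect how far these libraries vary, and part of that variation may be technical.

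Complexes I and II feed electrons from NADH and succinate into the ubiquinone pool, complex III passes them to cytochrome c, and complex IV hands them to oxygen. Complexes I, III and IV pump protons across the inner mitochondrial membrane, and ATP synthase uses the gradient to make ATP. Most subunits are encoded in the nucleus, while a few core subunits of every complex except complex II are encoded in mitochondrial DNA. No gene of the mitochondrial chromosome is listed in the count table, so those partners were not analysed here. Lymphocytes draw on this machinery both at rest and when they are activated.

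Total counts ran from 45135093 to 51284691 reads per library, so depth was close to equal in both groups. Summed levels of 9 liver ILC1 marker genes were 6493 to 6580 CPM (counts per 1000000 reads, on library sizes scaled by edgeR) over healthy and 6093 to 6841 CPM over AML libraries. The groups overlapped in this sum, and the markers Itga1, Cxcr6, Tbx21 and Ncr1 were among the detected ones. The 7 markers of conventional NK cells summed to 124 to 156 CPM over healthy and 125 to 160 CPM over AML libraries, and 6 had positive fold changes. The 5 markers of proliferating cells summed to 17.9 to 67.5 CPM and 36.5 to 168 CPM, highest in AML 1, and all 5 had positive fold changes. In both lists 0 passed an adjusted p of 0.05. Markers of myeloid cells were not level. The 12 macrophage markers summed to 32.1 to 108 CPM in the healthy group and 138 to 213 CPM in the AML group. The 9 monocyte and neutrophil markers summed to 255 to 701 CPM in the healthy group and 786 to 957 CPM in the AML group, with Lyz2, the lysozyme of myeloid cells, at 459, 35.0 and 33.1 CPM in healthy 1 to 3 and 503, 567 and 434 CPM in AML 1 to 3. Of the markers tested all 10 of macrophages and all 8 of monocytes and neutrophils had positive fold changes, with 0 past an adjusted p of 0.05. The 11 dendritic cell markers summed to 870 to 906 CPM in the healthy group and 1132 to 1332 CPM in the AML group, and the 6 T cell markers to 1371 to 1692 CPM and 979 to 1351 CPM. Single genes made up most of both sums. Itgax measured 694, 764 and 769 CPM in healthy 1 to 3 and 703, 765 and 672 CPM in AML 1 to 3, a log2 fold change of -0.06. In contrast, 10 of the 11 dendritic cell markers had positive fold changes, among them Cd74 at 2.01 and H2-Aa at 1.91, with 0 past an adjusted p of 0.05. Cd74 measured 105, 51.9 and 65.1 CPM in healthy 1 to 3 and 341, 194 and 359 CPM in AML 1 to 3. Cd3g measured 1646, 1459 and 1317 CPM in healthy 1 to 3 and 951, 1293 and 1176 CPM in AML 1 to 3. Of the 6 T cell markers 3 had positive fold changes, among them Cd3e at 0.38 and Cd8a at 0.47. The hepatocyte markers summed to at most 5.92 CPM and Cps1 had no read. In bulk RNA fewer cells of a type and less RNA per cell cannot be told apart, and the part of myeloid RNA in the values below was not tested beyond a fit with Lyz2 as a covariate. Lyz2 was high in healthy 1 and in all AML libraries, so this fit could tell Lyz2 from the group mainly through healthy 1. In that fit 0 of the 80 respiratory chain genes passed an adjusted p of 0.05, as did 0% of all genes. An unadjusted p below 0.05 was found for 3 of them (3.75%), against 7.6% of all genes, and 56 had negative fold changes.

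The respiratory chain and ATP synthase genes differed little in mRNA level between the liver ILC1 of leukaemic and of healthy mice. Summed over the 80 genes, the level was 10462, 10221 and 9421 CPM in healthy 1 to 3 and 9793, 9985 and 9113 CPM in AML 1 to 3. The groups overlapped, with means of 10034 ± 545 and 9630 ± 458 CPM (SD, n = 3 each), and these genes took 0.982% of the reads in healthy and 0.983% in AML libraries. By the quasi-likelihood F test of edgeR, 0 of the 80 genes passed an adjusted p of 0.05, with 0% of all 12469 genes tested called. DESeq2, the likelihood ratio test of edgeR and limma-voom also called 0 of them, where they called 1.15%, 0.802% and 0% of all genes tested. At an unadjusted p below 0.05 there was 1 gene of 80 (1.25%), Cox7a2l, which was lower in AML, where 8.84% of all genes lay below that value. In the higher direction there were 0 members against 5.08% of all genes, and in the lower direction 1 member against 3.75% of all genes. With library totals in place of scaled sizes this turned, to 2 members in the higher and 0 in the lower direction.

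The narrow spread came with narrow intervals. The fold changes of 72 of the 80 genes (90%) lay within 0.2 log2 units of 0, against 61.1% of all genes tested, and their SD was 0.18, against 0.53 over all genes. For 72 genes (90%, against 56.4% of all genes) the 95% interval of the fold change lay inside a 1.5-fold change either way, and for 76 genes it lay inside a 2-fold change. The 8 genes with wider intervals were Ndufb4, Ndufs5, Cycs, Cox6a2, Cox6b2, Cox7c, Atp5g2 and Atp5l, all of which averaged under 10 CPM. Of the 80 genes 71 averaged 10 CPM or more, against 8345 of the 12469 genes tested. The median SE was 0.09 over the 80 genes and 0.15 over all genes. The shares and SDs above were not compared among genes of like level. The median coefficient of variation between libraries of a group was 5.43% in healthy and 7.21% in AML libraries, against 7.84% and 9.04% for all genes at 10 CPM or more. The median log2 fold change (AML minus healthy) was -0.03 over the 80 genes and 0.01 over all genes tested. With library totals in place of scaled sizes both were positive, at 0.03 and 0.07, so the sign over the 80 genes depended on the scaling, and without AML 3 the median over the 80 genes was 0.0093. By complex it was -0.03 for complex I, -0.10 for complex II, -0.05 for complex III, -0.00 for complex IV and -0.02 for ATP synthase.

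**Figure D1:**
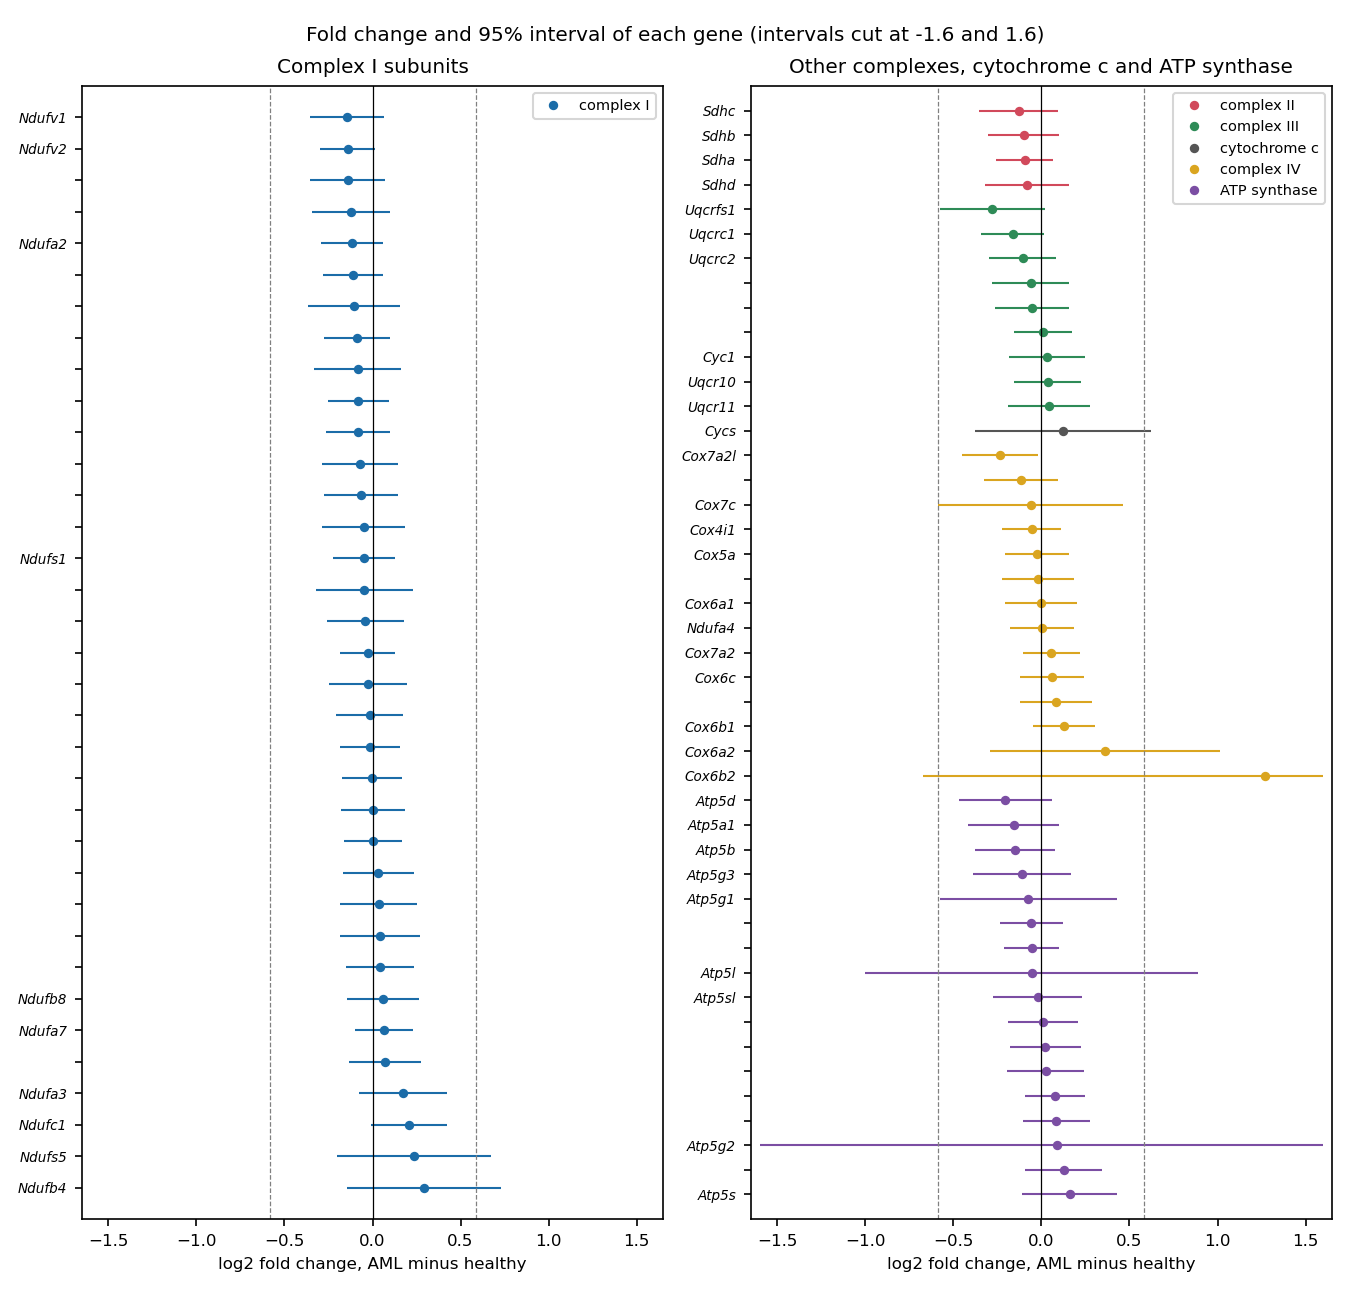
Log2 fold change (AML minus healthy, x axis) of each of the 80 genes with its 95% interval (line), complex I on the left and the others on the right, coloured by complex; genes named in the text are labelled, and dashed lines mark a 1.5-fold change either way. Of the 80 intervals 72 lie between the dashed lines, and the widest belong to Cox6b2 and Atp5g2, which have few reads.

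The 3 AML libraries all exceeded the 3 healthy ones for 7 of the 80 genes and all lay below them for 5, together 12 of 80 (15%). Over all genes tested these shares were 8.2% above, 7.34% below and 15.5% in either direction, so the share among the respiratory chain genes was close to the background. The 7 above were Ndufc1, Ndufb4, Ndufs5, Ndufa7, Cox6b1, Cox6b2 and Cox6a2, and the 5 below were Ndufv2, Ndufa2, Sdha, Uqcrc1 and Cox7a2l. Cox6b2 had 7, 11 and 1 reads in healthy 1 to 3 and 13, 19 and 14 reads in AML 1 to 3. It reached the read threshold only through the AML libraries, so the threshold itself favoured its place among the 7.

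Complex I, the NADH dehydrogenase, holds 7 nuclear core subunits that carry the flavin and iron-sulphur clusters, and accessory subunits that build its frame. All 7 core subunits had negative fold changes, from -0.15 to -0.01 with a median of -0.09, while 15 of the 28 accessory subunits were negative with a median of -0.01. None of these 35 genes passed a test. The number of negative core genes depended on the scaling and on the libraries healthy 1 and AML 1, while their median stayed negative. With library totals in place of scaled sizes 4 of the 7 were negative with a median of -0.03. Without healthy 1, 6 of the 7 were with a median of -0.04, and without AML 1, 6 of the 7 with a median of -0.10. Without both healthy 1 and AML 1, 5 of the 7 were with a median of -0.02. With library totals 8 of the 28 accessory subunits were negative.

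Ndufv2, a core subunit of the NADH-binding arm (chr17:66078795-66101559), measured 114, 109 and 107 CPM in healthy 1 to 3 and 96.6, 102 and 100.1 CPM in AML 1 to 3. Its lowest healthy library lay just above its highest AML library, and the log2 fold change was -0.14 ± 0.07 (SE), with an unadjusted p of 0.0693 and an adjusted p of 0.569. Ndufv1, which binds NADH and flavin mononucleotide, measured 103, 98.00 and 97.6 CPM in healthy 1 to 3 and 91.8, 98.00 and 80.2 CPM in AML 1 to 3. Here AML 2 lay within the healthy values and AML 3 well below them, with a log2 fold change of -0.15 ± 0.09 (SE) and an adjusted p of 0.64. Ndufs1, the largest core subunit, measured 105, 109.7 and 96.5 CPM in healthy 1 to 3 and 97.4, 101.0 and 102 CPM in AML 1 to 3, with fully overlapping groups and a 95% interval of -0.22 to 0.13.

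Among the accessory subunits Ndufc1 (chr3:51405479-51408955) had the smallest unadjusted p. It measured 32.2, 30.1 and 28.8 CPM in healthy 1 to 3 and 32.8, 35.5 and 36.9 CPM in AML 1 to 3, and every AML value lay above every healthy value, though AML 1 and healthy 1 were close. The log2 fold change was 0.21 ± 0.09 (SE), with an unadjusted p of 0.059 and an adjusted p of 0.569. Ndufa3, the complex I gene with the highest level per length at 424 RPKM (reads scaled to gene length and library size), measured 138, 138 and 137 CPM in healthy 1 to 3 and 136, 180.3 and 149 CPM in AML 1 to 3. AML 2 alone was far above the rest, AML 1 was the lowest of the 6 libraries, and the log2 fold change was 0.17 ± 0.11 (SE). Ndufs5, the lowest at 14.6 RPKM, measured 7.40, 7.06 and 5.94 CPM in healthy 1 to 3 and 7.78, 8.65 and 7.55 CPM in AML 1 to 3, 0.23 ± 0.19 (SE) on the log2 scale at an adjusted p of 0.699. Of its coding sequence 72.0% is also found in 1 pseudogene, as described below. Ndufb8, an accessory subunit of the membrane arm, averaged 116 ± 9.75 CPM against 121 ± 7.10 CPM (SD, n = 3 each) in healthy and AML libraries, with overlapping groups. Ndufa4 carries a complex I name but is known as a subunit of complex IV and is counted there. It measured 114, 111 and 103 CPM in healthy 1 to 3 and 117, 106 and 105 CPM in AML 1 to 3, and its log2 fold change was 0.00 ± 0.08 (SE).

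Complex II, succinate dehydrogenase, links the tricarboxylic acid cycle to the chain and has no mitochondrially encoded subunit. All 4 genes had negative fold changes, from -0.13 to -0.08 with a median of -0.10, and none passed a test. All 4 were negative in every alternative fit but that without AML 3, where 3 of 4 were. Sdha, the flavoprotein that oxidises succinate (chr13:74322255-74350240), measured 393, 375 and 371 CPM in healthy 1 to 3 and 336, 368 and 362 CPM in AML 1 to 3. The groups did not overlap, but healthy 3 and AML 2 were less than 1% apart, and the log2 fold change was -0.09 ± 0.07 (SE), with an unadjusted p of 0.212 and an adjusted p of 0.682. Sdhb, the iron-sulphur subunit, measured 201, 194 and 167 CPM in healthy 1 to 3 and 179, 179 and 167 CPM in AML 1 to 3, where healthy 3 sat with the AML libraries. Sdhc, one of the membrane anchors, measured 122, 120.2 and 105 CPM in healthy 1 to 3 and 101.2, 117 and 98.6 CPM in AML 1 to 3, with healthy 3 and AML 2 inside the range of the opposite group. Summed over the 4 genes, complex II stood at 848, 812 and 770.5 CPM in healthy 1 to 3 and 752, 787 and 731 CPM in AML 1 to 3, so AML 2 lay above healthy 3.

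Complex III, the cytochrome bc1 complex, had 5 negative fold changes of 9. Uqcrfs1, the Rieske iron-sulphur protein (chr13:30540312-30545316), had the most negative fold change of all 80 genes. It measured 124, 122 and 109 CPM in healthy 1 to 3 and 116, 94.8 and 82.0 CPM in AML 1 to 3. AML 1 lay among the healthy values and AML 3 was the lowest library, so the groups overlapped and the log2 fold change was -0.28 ± 0.13 (SE), with an unadjusted p of 0.0647 and an adjusted p of 0.569. Uqcrc1, a core protein of the matrix side (chr9:108936648-108949641), measured 314, 294 and 271 CPM in healthy 1 to 3 and 269.8, 262 and 253 CPM in AML 1 to 3. All AML values lay below all healthy values, with healthy 3 and AML 1 nearly equal, and the log2 fold change was -0.16 ± 0.08 (SE), with an unadjusted p of 0.0696 and an adjusted p of 0.569. Without AML 1 the log2 fold change of Uqcrfs1 was -0.42 with an adjusted p of 0.108. Uqcrc2, the partner of Uqcrc1, averaged 144 ± 13.0 CPM against 134 ± 4.16 CPM (SD, n = 3 each), with overlapping groups and a change of -0.11 ± 0.08 (SE) on the log2 scale.

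Cyc1, the cytochrome c1 that passes electrons on, measured 158, 140.1 and 129 CPM in healthy 1 to 3 and 136, 147 and 152 CPM in AML 1 to 3, and its fold change of 0.03 ± 0.09 (SE) was within the spread of the libraries. The small subunits Uqcr10, highest in the complex at 229.6 RPKM, and Uqcr11, lowest at 58.8 RPKM, had log2 fold changes of 0.04 and 0.05. Cycs, the soluble carrier cytochrome c, measured only 5.77, 6.41 and 6.58 CPM in healthy 1 to 3 and 6.76, 8.10 and 5.57 CPM in AML 1 to 3. Its groups overlapped and its interval of -0.38 to 0.62 was too wide to place the change within 1.5-fold.

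Complex IV, cytochrome c oxidase, holds the gene with the smallest p of all 80. Cox7a2l, also known as Scaf1, is a relative of Cox7a2 known for joining complexes III and IV into a supercomplex (chr17:83501917-83514333). It had 1487, 1490 and 1326 reads in healthy 1 to 3 and 1185, 1251 and 1200 reads in AML 1 to 3, which came to 30.1, 30.0 and 27.5 CPM in healthy 1 to 3 and 25.3, 23.9 and 25.2 CPM in AML 1 to 3. The 3 AML values lay within 2 CPM of each other and below every healthy value. The log2 fold change was -0.23 ± 0.09 (SE), with an unadjusted p of 0.036 and an adjusted p of 0.542. Over all alternatives its adjusted p ran from 0.337 to 0.828, and the fold change stayed negative in each. Of its coding sequence 53.7% is also found in 1 pseudogene, as described below. The laboratory strain C57BL/6 is known to carry a short form of this protein, and the counts per gene do not separate forms.

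The common subunits of complex IV gave 5 positive and 6 negative fold changes of 11, and with library totals 1 of the 11 was negative. Cox6b1, which faces the intermembrane space (chr7:30616974-30626151), measured 202, 199 and 195 CPM in healthy 1 to 3 and 204, 236 and 212 CPM in AML 1 to 3. All AML values lay above all healthy values, AML 2 by the most, and the log2 fold change was 0.13 ± 0.08 (SE), with an unadjusted p of 0.13 and an adjusted p of 0.633. Cox6a1, the gene with the highest level per length of all 80 at 539 RPKM, measured 287, 293 and 277 CPM in healthy 1 to 3 and 279.5, 318 and 259 CPM in AML 1 to 3, and AML 2 and AML 3 enclosed every other library. Cox4i1, the largest nuclear subunit, averaged 267 ± 10.9 CPM against 257 ± 11.9 CPM (SD, n = 3 each), and Cox5a, a matrix-facing subunit, 206 ± 8.17 CPM against 203 ± 14.5 CPM. Both had overlapping groups and intervals inside a 1.5-fold change.

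Isoforms of heart, muscle and testis stood low, and some had only a few reads. Cox6a2, the heart and muscle form of Cox6a, measured 2.05, 2.11 and 2.10 CPM in healthy 1 to 3 and 2.27, 2.58 and 3.20 CPM in AML 1 to 3. It made up 0.586% ± 0.019 of Cox6a reads per length in healthy and 0.764% ± 0.193 in AML libraries (SD, n = 3 each), with AML 3 apart from the others. The log2 fold change was 0.36 ± 0.28 (SE) and its adjusted p 0.691. Cox6b2, the testis form of Cox6b, had 7, 11 and 1 reads in healthy 1 to 3 and 13, 19 and 14 reads in AML 1 to 3. Its fold change of 1.27 ± 0.83 (SE) rests on these few reads, and its 95% interval ran from -0.67 to 3.21. Cox4i2, the form of Cox4 known from lung and low oxygen, had 1, 0 and 0 reads in healthy 1 to 3 and 0, 1 and 4 reads in AML 1 to 3 and was left out by the read threshold.

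ATP synthase consists of a catalytic F1 head and a membrane Fo part joined by stalks. No gene of the 17 separated the groups, and 9 had negative fold changes. In the F1 head 4 of 5 were negative, with a median of -0.15. Atp5b, the catalytic beta subunit and the highest of the complex at 518 RPKM (chr10:128083307-128090388), measured 1125, 1018 and 915 CPM in healthy 1 to 3 and 987, 923 and 843 CPM in AML 1 to 3. Healthy 1 was the highest and AML 3 the lowest library, with healthy 3 below AML 1 and AML 2, and the log2 fold change was -0.15 ± 0.10 (SE), with an unadjusted p of 0.162 and an adjusted p of 0.646. Atp5a1, the alpha subunit, followed the same order of libraries within each group at 848, 805 and 704 CPM in healthy 1 to 3 and 796, 694 and 623 CPM in AML 1 to 3, a log2 fold change of -0.16 ± 0.11 (SE). Atp5d, the delta subunit, measured 291, 281 and 245 CPM in healthy 1 to 3 and 271, 228 and 209.8 CPM in AML 1 to 3, -0.20 ± 0.11 (SE) on the log2 scale at an adjusted p of 0.616. With library totals in place of scaled sizes 3 of the 5 F1 genes were negative.

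The c ring, which turns as protons pass, is encoded by 3 genes whose mature proteins are identical. Atp5g3 made up 98.3% ± 0.131 of their reads per length in healthy and 98.3% ± 0.274 in AML libraries (SD, n = 3 each). Atp5g3 averaged 261 ± 19.4 CPM against 242 ± 36.3 CPM, with overlapping groups and a log2 fold change of -0.11 ± 0.12 (SE). Atp5g1 measured 5.55, 4.68 and 4.90 CPM in healthy 1 to 3 and 4.45, 5.42 and 4.50 CPM in AML 1 to 3, and Atp5g2 stood at 0.176 ± 0.0634 CPM in the healthy group and 0.188 ± 0.0969 CPM in the AML group. For both the coding sequence is found almost whole in other genes, so the shares of the 3 are uncertain.

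**Figure D2:**
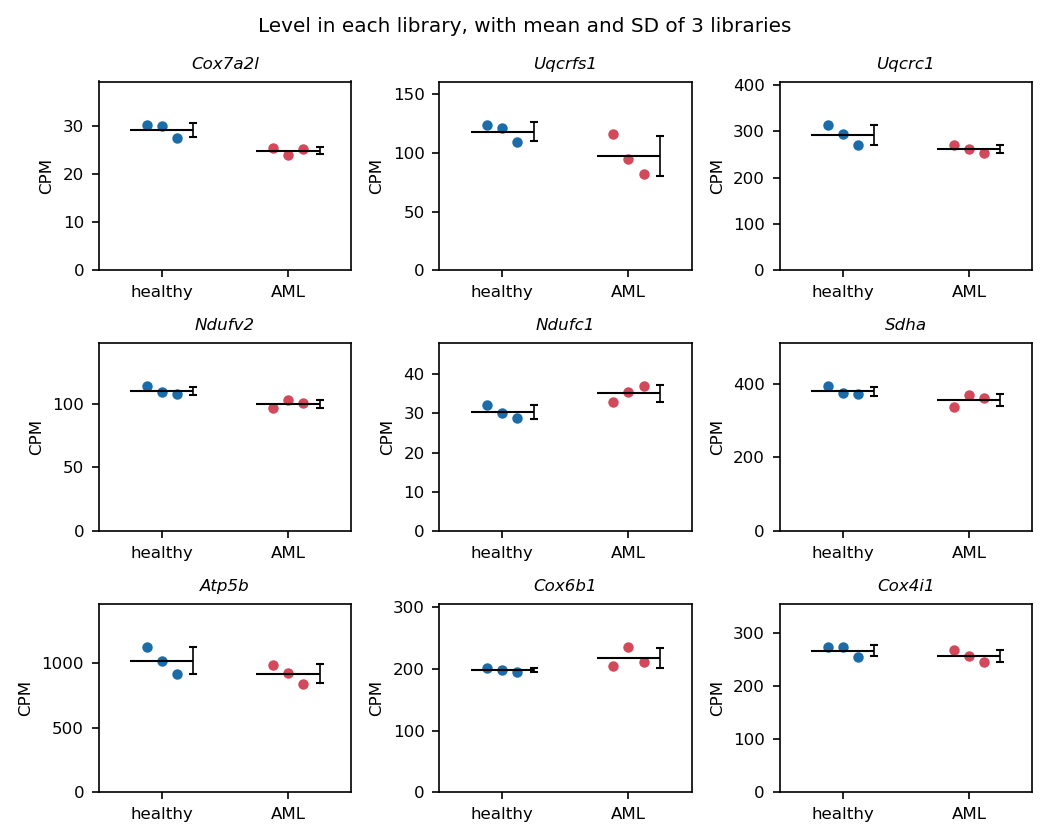
Level (CPM, y axis from 0) of 9 genes in each healthy (blue) and AML (red) library, with the mean (black line) and SD of 3 libraries. Cox7a2l, Uqcrc1, Ndufv2 and Sdha lie lower and Ndufc1 and Cox6b1 higher in AML without overlap, while Uqcrfs1, Atp5b and Cox4i1 overlap.

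Libraries of the same group differed from each other. The median deviation of the 80 genes from their 6-library mean was 0.05, 0.05 and -0.06 log2 units in healthy 1 to 3 and -0.02, 0.06 and -0.06 in AML 1 to 3. Healthy 1, healthy 2 and AML 2 thus stood high, and healthy 3, AML 3 and, by less, AML 1 stood low. The median over all genes tested lay between 0.0037 and 0.011 in every library. For the F1 head of ATP synthase the deviations were 0.20, 0.08 and -0.07 in healthy and 0.03, -0.06 and -0.19 in AML libraries, so healthy 1 and AML 3 lay at the extremes. Leaving out a library moved the number of genes with negative fold changes from 47 of 80 to between 36 (without AML 3) and 59 (without AML 2). It moved the number at an unadjusted p below 0.05 from 1 to between 0 and 6, the highest without AML 1, when 15% of all genes lay below that value.

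**Figure D3:**
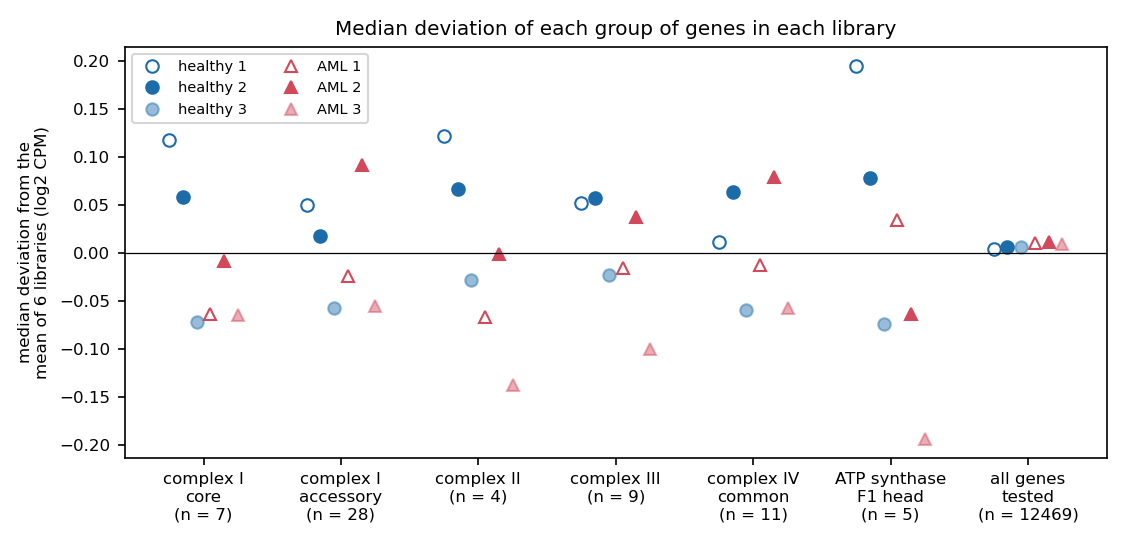
Median deviation from the mean of 6 libraries (log2 CPM, y axis) for groups of genes in each healthy (circle) and AML (triangle) library; n is the number of genes. Healthy 3 and AML 3 lie below 0 in every respiratory chain group, while the medians over all genes tested lie between 0.0037 and 0.011.

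The sign of the fold change went with gene length. Of the 28 genes of 1 kb or more, 21 had a negative fold change and the median was -0.09, while 26 of 52 shorter genes did, with a median of 0.00. The longer genes include all 4 of complex II, 5 of the 7 core genes of complex I and 3 of the 5 of the F1 head. Across the 80 genes Spearman's rho between length and fold change was -0.413, and -0.44 over the 71 genes at 10 CPM or more. Across all genes tested it was 0.0867, and 0.164 at 10 CPM or more. Lengths differed, as 9118 of all genes tested but only 8 of the 80 were of 2 kb or more. From 1 to 2 kb the median fold change was -0.10 for 20 of the 80 genes and -0.025 for all 2438 genes tested. At 2 kb or more these medians were -0.035 and 0.020, and under 0.6 kb they were 0.0015 and 0.0056. Genes share libraries and are not independent replicates, so these are descriptions with no test. Without a single library rho stayed between -0.475 and -0.287. With library totals in place of scaled sizes 16 of the 28 longer genes were negative, and 27 of all 80 against 47 with scaled sizes, as the median over all genes moved from 0.01 to 0.07. With a trend on gene length fitted in each library, the 80 genes kept a rho of -0.362.

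**Figure D4:**
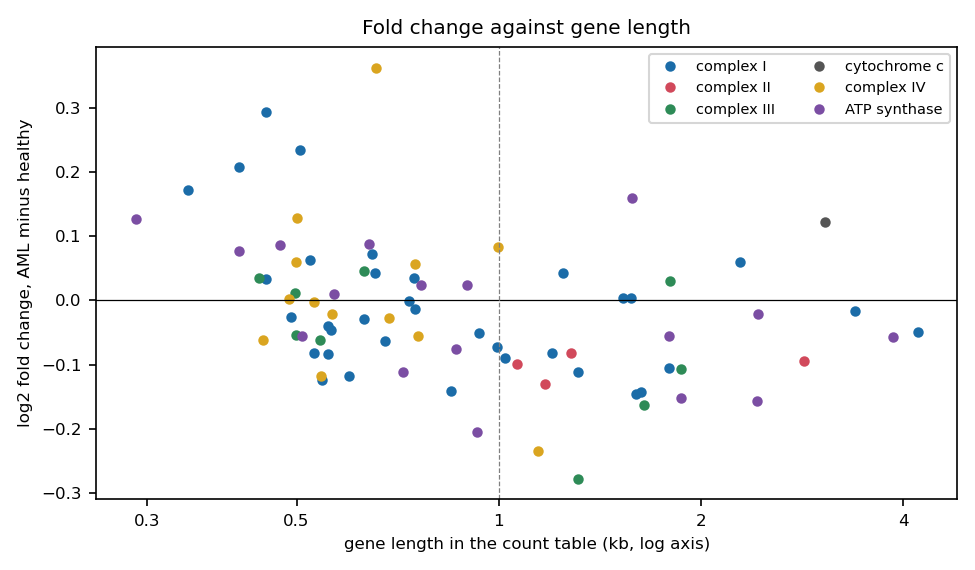
Log2 fold change (AML minus healthy, y axis) of each gene against its length in the count table (kb, log axis), coloured by complex; the dashed line marks 1 kb, and Cox6b2, at 1.27, is left out. Of 28 genes to the right of the line 21 lie below 0, and of 52 to the left 26 do.

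Levels per length varied far more between the genes than between the groups. Complex I had a median of 90.5 RPKM, complex II 113, complex III 113, complex IV 193 and ATP synthase 139.7 RPKM, as means over 6 libraries. Within ATP synthase the values ran from 0.283 RPKM for Atp5g2 to 518 RPKM for Atp5b, though its subunits are assembled in fixed ratios. Several subunits known to be part of their complex in every tissue stood very low, among them Atp5l at 1.90 RPKM, Cycs at 2.14 RPKM and Cox7c at 8.34 RPKM.

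These low genes have copies elsewhere in the genome. Each coding sequence was divided into all windows of 51 bases, the length of a read, and each window was sought in the transcripts of all other annotated genes. For Atp5l, Cycs, Cox7c, Ndufb4 and Atp5g2 every window was also found in another gene, and for Atp5g1 99.4% were. For Atp5l the other genes numbered 13, of which 12 are pseudogenes, and for Cycs 11, of which 10 are pseudogenes. A read from such a window has no unique origin. The windows below, from the coding strand in GRCm38 (mm10), each lie within a single exon. Among such windows of the gene they are ones found whole, on either strand, in the most other genes. These numbered 9 for Atp5l, 6 for Cycs, and 2 each for Cox7c and Atp5g2, and windows across exon junctions were not eligible for printing.
Atp5l (chr9:44913415-44913465, minus strand): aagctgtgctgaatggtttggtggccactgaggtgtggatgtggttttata
Cycs (chr6:50565311-50565361, minus strand): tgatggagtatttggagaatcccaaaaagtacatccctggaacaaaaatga
Cox7c (chr13:86045787-86045837, minus strand): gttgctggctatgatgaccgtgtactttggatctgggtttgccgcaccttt
Atp5g2 (chr15:102665805-102665855, minus strand): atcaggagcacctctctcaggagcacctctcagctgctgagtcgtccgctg

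The 13 genes with at least 50% of their windows shared had a median of 18.6 RPKM, from 0.283 to 296, where 45 genes with no shared window had a median of 109.8 RPKM and 21 genes in between 125 RPKM. Cox6c, with 53.4% shared, still stood at 296 RPKM, so shared sequence did not always go with a low value. Low values without any shared window were those of Cox6b2 and Cox6a2, the tissue isoforms, and of Atp5s, a coupling factor with an ATP synthase name, at 11.3 RPKM. How the authors' counting treated reads with several matches is not given in the sources used here, and its part in these levels was not tested. The levels of Atp5l, Cycs, Cox7c, Ndufb4, Atp5g1 and Atp5g2 are therefore uncertain, and so are their fold changes. The same limit holds in part for the rest of the 13 genes, among them Ndufs5 with 72.0% shared and Cox7a2l with 53.7%. Among the 67 genes left when the 13 were set aside, with Atp5sl kept although it had no match in the annotation, 0 passed an adjusted p of 0.05 by edgeR, 0 had an unadjusted p below 0.05, and the median fold change was -0.03. The fit was the same, and the 13 include Cox7a2l, the only gene below that unadjusted value, so this 0 followed from the cut.

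**Figure D5:**
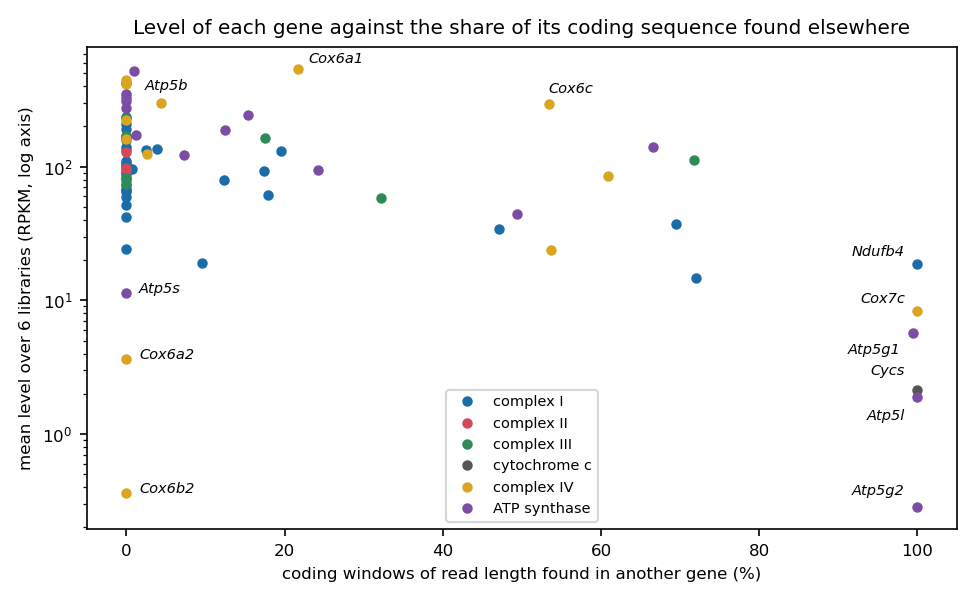
Mean level over 6 libraries (RPKM, log axis) of 79 genes against the share of their 51-base coding windows found in another gene, coloured by complex. The 6 genes at 99.4% or more lie at or below 18.6 RPKM, and Cox6a2, Cox6b2 and Atp5s lie low with no shared window.

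Nuclear respiratory chain genes are known targets of the factors NRF1, the ETS factor GABP and YY1. Promoters from 250 bases before to 50 bases after the start (RefSeq, GRCm38.p6, the most upstream start) were found for 67 of the 80 genes. Both strands were searched for 3 motifs. The NRF1-type motif, GCGC on either side of any 2 bases, was present in 17 (25.4%), against 6.47% of 27025 promoters and 13.9% of the 9687 of genes tested here. CCGGAAG (ETS-type) was present in 15 (22.4%), against 9.14% and 19%, and AANATGGC (YY1-type) in 16 (23.9%), against 6.2% and 9.2%. Most of these 16 genes, such as Ndufc1, Ndufa3 and Atp5b, had no YY1-type match within the 250 bases before the start. Their matches took in bases at or after the start, and the share over all promoters was not split in this way. At least 1 of the 3 was present in 42 (62.7%), against 19.3% and 36%. The G and C content of the windows had a median of 57.3% for the 67 genes and 60.7% for the genes tested, and matches of different motifs overlapped in 0 of them. The median fold change of genes with and without a match was -0.017 and -0.024 for the NRF1-type, -0.05 and -0.02 for the ETS-type and -0.02 and -0.02 for the YY1-type motif, with no test. Upstream stretches are printed for Ndufb4 and Sdha, which had the most NRF1-type matches at 3 each, and for Cox6a1, 1 of 4 genes with 2, because they show how the matches repeat. Capitals mark NRF1-type and, in Cox6a1, ETS-type letters.
Ndufb4 (chr16:37654369-37654618, minus strand): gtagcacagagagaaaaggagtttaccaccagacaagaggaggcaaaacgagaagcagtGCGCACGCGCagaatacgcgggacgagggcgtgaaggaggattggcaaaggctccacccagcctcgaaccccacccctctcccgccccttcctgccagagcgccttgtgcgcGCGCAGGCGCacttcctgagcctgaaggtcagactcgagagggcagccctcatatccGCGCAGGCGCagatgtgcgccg
Sdha (chr13:74350241-74350490, minus strand): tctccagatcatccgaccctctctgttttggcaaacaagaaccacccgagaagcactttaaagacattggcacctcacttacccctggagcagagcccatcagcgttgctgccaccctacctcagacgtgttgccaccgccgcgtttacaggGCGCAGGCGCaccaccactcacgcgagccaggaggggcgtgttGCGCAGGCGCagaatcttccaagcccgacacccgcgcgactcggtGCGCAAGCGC
Cox6a1 (chr5:115348959-115349208, minus strand): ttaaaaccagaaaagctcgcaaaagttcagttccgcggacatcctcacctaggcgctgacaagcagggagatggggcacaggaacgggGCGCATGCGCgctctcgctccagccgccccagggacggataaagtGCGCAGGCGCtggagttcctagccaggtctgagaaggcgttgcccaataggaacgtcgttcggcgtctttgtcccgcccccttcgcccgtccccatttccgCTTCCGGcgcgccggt

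The factors themselves did not pass a test either. Nrf1, which binds the first motif, measured 102, 102 and 95.6 CPM in healthy 1 to 3 and 98.4, 82.6 and 80.2 CPM in AML 1 to 3, where AML 2 and AML 3 lay below and AML 1 among the healthy values, and the log2 fold change was -0.20 ± 0.10 (SE), with an unadjusted p of 0.0721 and an adjusted p of 0.57. Gabpa, the DNA-binding subunit of GABP, averaged 86.9 ± 5.81 CPM against 87.8 ± 9.66 CPM (SD, n = 3 each). Tfam, which packages and transcribes mitochondrial DNA, measured 56.8, 49.8 and 50.2 CPM in healthy 1 to 3 and 45.6, 46.1 and 47.6 CPM in AML 1 to 3, all AML values below all healthy values, with a log2 fold change of -0.17 ± 0.09 (SE) and an adjusted p of 0.587. The coactivator Ppargc1b measured 10.2, 15.6 and 15.3 CPM in healthy 1 to 3 and 9.45, 7.98 and 10.3 CPM in AML 1 to 3. AML 3 was level with healthy 1 and the log2 fold change was -0.57 ± 0.21 (SE), with an unadjusted p of 0.0287 and an adjusted p of 0.522. Its relative Ppargc1a had at most 0.463 CPM and was not tested. Of 14 regulators tested 0 passed, and 8 had negative fold changes with a median of -0.03.

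Other genes of the pathway were examined by list. Of 14 complex I assembly factors 0 passed, 9 were negative and the median was -0.05. Ndufaf4, one of them, measured 35.8, 34.0 and 33.6 CPM in healthy 1 to 3 and 28.5, 29.7 and 27.1 CPM in AML 1 to 3, all AML values below all healthy values, and the log2 fold change was -0.28 ± 0.09 (SE), with an unadjusted p of 0.0132 and an adjusted p of 0.469. Of 27 assembly factors of complexes II to IV 0 passed and 17 were negative, with Cox17, a copper chaperone, at 0.19 ± 0.10 (SE) and Ttc19, of complex III, at -0.21 ± 0.12 (SE). Atpif1, the inhibitor of ATP synthase, measured 40.1, 47.5 and 35.4 CPM in healthy 1 to 3 and 49.0, 49.98 and 45.5 CPM in AML 1 to 3, with overlapping groups and a log2 fold change of 0.23 ± 0.12 (SE), and the assembly factor Atpaf2 stood at -0.16 ± 0.08 (SE). The ATP synthase subunits 2010107E04Rik and Usmg5, whose symbols fall outside the naming rule, had fold changes of 0.19 ± 0.08 (SE) and 0.15 ± 0.19 (SE).

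The tricarboxylic acid cycle supplies NADH and succinate to the chain. A list of the cycle and of pyruvate entry into it had 15 negative fold changes of 19 (78.9%, against 48% of all genes tested). The median of the list was -0.07, and 0 passed. Idh3a, a subunit of the NAD-linked isocitrate dehydrogenase (chr9:54586511-54604662), measured 149.8, 149 and 140.1 CPM in healthy 1 to 3 and 128, 125 and 122 CPM in AML 1 to 3. The groups were well apart, and the log2 fold change was -0.23 ± 0.07 (SE), with an unadjusted p of 0.00958 and an adjusted p of 0.458. Dlst, of the 2-oxoglutarate dehydrogenase complex, measured 137, 135 and 129.7 CPM in healthy 1 to 3 and 120.2, 119.8 and 116 CPM in AML 1 to 3, again with no overlap, and the log2 fold change was -0.17 ± 0.06 (SE), with an unadjusted p of 0.0274 and an adjusted p of 0.518. With library totals in place of scaled sizes 11 of the 19 were negative.

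The authors' deposited table, which gives their comparison of AML with healthy libraries, lists 78 of the 80 genes among 9769. Of the 78, 0 lie below an adjusted p of 0.05, where 74 of all genes in the authors' deposited table do, and the smallest adjusted p among them is 0.593. A negative fold change is given for 45 of them in the authors' deposited table.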

How the data were processed

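The authors deposited raw read counts per gene symbol for 6 libraries, with gene lengths. The tools in the submitters' processing notes are STAR 2.6.0, edgeR 3.28.1, HTSeq 0.6.0 and bcl2fastq 2.18.0.12, with the builds mm10 and hg19 and no roles. The authors' deposited table of their comparison holds, per the file headers, log2 fold changes, likelihood ratio scores and p-values. The authors' values per library there match RPKM of the counts times 1.01 and were used in no test. Counting options are not given in these sources.

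Counts were tested with edgeR 4.0.16 in R 4.3.3: TMM scaling, filterByExpr, the group alone as design, the two-sided quasi-likelihood F test, and Benjamini-Hochberg adjustment over 12469 genes. The script was first tested on simulated data. The changes planted there were larger than those of nearly all genes described here, so that run does not show whether small changes would be found. Levels are CPM on scaled sizes. RPKM also divides by the deposited length. A count of 3, the limit that 0 reads allow, equals 0.0574 to 0.0642 CPM, for counting error only. For 1 gene the smallest p of an exact permutation test is 0.1 at this size. Shared windows used GENCODE vM21 transcripts. Members and lists were chosen with earlier results of these data known. Named genes were, in each complex, the 3 with the smallest p, the highest and lowest level per length, a fixed set of subunits, and up to 2 per other list; 1 of them is not reported here. Atp5l, Cox7c, Cox6c, Ndufb4, Ndufa7 and Ndufa2 were named after their values were seen. Alternatives covered scaling, filters, tools (DESeq2 1.42.0, limma 3.58.1), libraries, Lyz2, gene length, shared windows and the replicate number.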

Additional observations from a re-analysis of the deposited data

How the results depend on the processing

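The number of respiratory chain genes past an adjusted p of 0.05 was 0 in every alternative run, where 444 genes (3.54% of all tested) were called without both healthy 1 and AML 1, 147 (1.15%) without AML 1, 143 (1.15%) with DESeq2, 100 (0.802%) with the likelihood ratio test, 89 (0.697%) without healthy 1 and at most 2 in the others, and the lowest adjusted p of a named gene was 0.108. Of 573 recomputed fold changes of the 32 genes under the naming rule 540 kept their direction, and 19 genes kept it in every alternative; the cause of the other sign changes was not tested. The number at an unadjusted p below 0.05, 1 as reported, was 2 with library totals, with no filter, with limma-voom and with the length trend, 0 with the stricter filter, the likelihood ratio test and without genes of shared windows (an alternative chosen after seeing the data), 3 with Lyz2, and 4 without both healthy 1 and AML 1. Of all genes tested 7.6% lay below that value with Lyz2, 15.9% without both libraries, and 7.91% to 10.8% in the other fits of all genes just named. Without genes of shared windows the 0 followed from the cut, which took out Cox7a2l. With library totals the medians were 0.034 for complex I and 0.0070 for complex III, and Cox6a1 stood at 0.060, Ndufs1 at 0.015, Cox4i1 at 0.0058 and Cox5a at 0.034. With Lyz2 the complex II median was -0.18, Atp5g2 was -0.20, Ndufb8 -0.058, Ndufa4 -0.066 and Cyc1 -0.12. Ndufa4 was -0.00075 with the size factors of DESeq2, -0.00079 with no filter and -0.00078 with DESeq2. Cox6a1 was 0.0030 with the stricter filter and Atp5g2 -0.031 with limma-voom. Without both healthy 1 and AML 1 the groups did not overlap for 23 genes (29.1%, against 47.3% of all genes), and Cox6a1 was 0.016, Ndufa4 -0.017 and Atp5g1 0.048.

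With 1 library left out, the number at an unadjusted p below 0.05 ran from 0 to 6, against 6.04% to 15% of all genes. Groups did not overlap for 13 genes (16.2%, against 25.9% of all genes without healthy 1 and 22.9% without healthy 2) to 32 genes (40%, against 29.2%, without healthy 3). The medians ran from -0.084 to 0.0074 for complex III and from -0.10 to 0.036 for ATP synthase. Fold changes ran from -0.019 to 0.072 for Uqcr10, -0.039 to 0.10 for Uqcr11, -0.087 to 0.063 for Cox6a1, -0.19 to 0.46 for Atp5g2, -0.013 to 0.11 for Ndufb8, -0.049 to 0.030 for Ndufa4, -0.046 to 0.11 for Cyc1, -0.023 to 0.25 for Cycs, -0.073 to 0.028 for Cox5a and -0.21 to 0.00033 for Atp5g3. Libraries with the same number correlated in their deviations at 0.145, -0.11 and 0.295, so the number was not taken to pair them; with it as a replicate block 4 genes (5%, against 11.7% of all genes) lay below an unadjusted p of 0.05 and 0 below an adjusted one. The widest intervals were those of genes under 10 CPM.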
